A study of Mus musculus with 8 samples.

Results

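The genes described here are the regulators and hallmark genes of epithelial-mesenchymal transition (EMT) that bound the miR-200 axis: Zeb1, Zeb2, Snai1, Snai2, Twist1, Twist2, Cdh1, Cdh2, Esrp1 and Vim. They were listed by name, with earlier results of these data known, and all 10 were found among the 55487 genes of the count table. RNA-seq was performed on LLC cells, a mouse Lewis lung carcinoma line, in culture. There were 4 wild-type libraries and 4 ΔAgo2 libraries. Both lines were grown in the same DMEM medium with 10% fetal bovine serum, and no other treatment is labelled. Per the study's methods, Ago2 was disrupted by lentiviral CRISPR-Cas9 with puromycin selection and single-cell sorting, so the ΔAgo2 line can be 1 clone, and a difference between the lines cannot be told apart from a difference between clones. The libraries are labelled as biological replicates, and nothing says further how separate the cultures were, so each p-value measures only the spread between these libraries.

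In EMT, epithelial cells lose cell-cell junctions and take on a motile, mesenchymal form. Zeb1, Zeb2, Snai1 and Snai2 are zinc finger repressors, and Twist1 and Twist2 are basic helix-loop-helix factors, that together turn down epithelial genes such as Cdh1. The miR-200 microRNAs, loaded on Argonaute proteins such as Ago2, bind the 3′ UTRs of Zeb1 and Zeb2, and ZEB proteins in turn repress the miR-200 genes, so that the pair form a double-negative loop. Carcinoma cell lines with a mesenchymal form usually have little miR-200.

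The 5 mature microRNAs of the family are shown here because matches to their seeds were searched for in the 3′ UTRs of the genes. Other kinds of site for these microRNAs were not searched. Capitals mark the seed, bases 2 to 8 from the 5′ end, and the sequences are those of RefSeq on GRCm38.p6. The miR-200b seed is shared by miR-200c and miR-429, and the miR-200a seed by miR-141.
mmu-miR-200b-3p (chr4:156055685-156055706, minus strand): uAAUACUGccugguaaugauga
mmu-miR-200c-3p (chr6:124718324-124718346, minus strand): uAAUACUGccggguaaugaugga
mmu-miR-429-3p (chr4:156053916-156053937, minus strand): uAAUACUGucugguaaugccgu
mmu-miR-200a-3p (chr4:156054911-156054932, minus strand): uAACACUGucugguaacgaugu
mmu-miR-141-3p (chr6:124717917-124717938, minus strand): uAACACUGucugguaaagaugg

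A site complementary to the miR-200b seed reads CAGTATT in the transcript and one for the miR-200a seed reads CAGTGTT. These letters were searched on the transcript strand of the longest 3′ UTR annotated for each gene on GRCm38. At least 1 of the 2 words was in the 3′ UTR of 5683 of 21157 genes (26.9%). CAGTATT was in 2934 of these UTRs (13.9%) and CAGTGTT in 3795 (17.9%).

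The Zeb1 3′ UTR of 2401 bases held 5 matches to the miR-200b seed and 4 to the miR-200a seed. The Zeb2 3′ UTR of 4941 bases held 5 and 4, also 9 in all. Only 3 of the 21157 genes (0.0142%) had 9 or more, and the other of these was D10Wsu102e, with 15 matches in an annotated UTR of 122583 bases. The last match in Zeb1 lay 1685 bases from the stop codon, and 5 of its 9 lay within the first 1100 bases, as did 8 of the 9 in Zeb2. The Snai1 UTR of 731 bases held 1 match, to the miR-200b seed, and the Snai2 UTR of 1089 bases held 1 of each kind. Cdh1, Cdh2, Esrp1, Twist1, Twist2 and Vim held none. The letters show both words in Zeb2, for which the 4 sites nearest the stop codon are given, and that Snai1 and Snai2 carry single copies. Capitals mark the 7-base match and coordinates give that match on GRCm38.
Zeb2, 209 bases into the UTR (chr2:44988358-44988364, minus strand): aaaattttgtaCAGTGTTaaggcctaaaaa
Zeb2, 393 bases into the UTR (chr2:44988174-44988180, minus strand): ctaccatacatCAGTATTttattattatta
Zeb2, 458 bases into the UTR (chr2:44988109-44988115, minus strand): ctacagtgcatCAGTATTacgattcctcaa
Zeb2, 741 bases into the UTR (chr2:44987826-44987832, minus strand): ccatccttgtaCAGTGTTcagagggtaacg
Snai1, 196 bases into the UTR (chr2:167542279-167542285, plus strand): ctcctacccctCAGTATTcatgaggtgtag
Snai2, 11 bases into the UTR (chr16:14708307-14708313, plus strand): gtggcgcaacCAGTGTTtactcaaacaga
Snai2, 427 bases into the UTR (chr16:14708723-14708729, plus strand): aaccaaaggaaCAGTATTtcttcttaatag

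**Figure D1:**
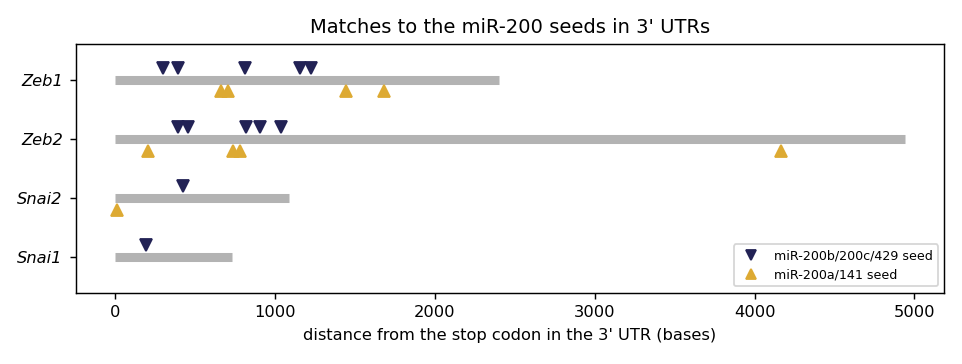
Positions of the 7-base matches to the miR-200b seed and the miR-200a seed along the longest annotated 3′ UTRs of Zeb1, Zeb2, Snai2 and Snai1, in bases from the stop codon (x axis); each bar spans 1 UTR and each mark is 1 match. Zeb1 and Zeb2 carry 9 marks each, while Snai2 carries 2 and Snai1 carries 1.

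Seeds of other microRNAs known for EMT genes were looked for in the same UTRs. A match to the miR-34a seed (CACTGCC, in 15.6% of all UTRs) was found once, in Snai1. The miR-203 site CATTTCA (16.7% of UTRs) was found once each in Zeb1, Snai2 and Esrp1, and the miR-205 site ATGAAGG (12.4%) once in Zeb1. The miR-9 site ACCAAAG (13.4%) was found once each in Zeb2, Snai2 and Cdh1. A match is a description of the letters, not of binding.

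The miR-200 genes gave no reads. Mir200b, Mir200a and Mir429 lie together on chromosome 4, Mir200c and Mir141 on chromosome 6, and all 5 had 0 counts in each of the 8 libraries. Gm13648, a processed transcript that spans the chromosome 4 cluster (4, 156052715 to 156059802, minus strand), also had 0 counts in each library, which with 3 counts as the limit of a count of 0 leaves it undetected at this depth. Gm15884 (6, 124715573 to 124718831, minus strand), which spans the chromosome 6 pair, had 1, 4, 0 and 7 counts in wild-type and 4, 3, 2 and 4 in ΔAgo2 replicates 1 to 4. These libraries were made from mRNA and do not measure mature microRNAs, and precursors as short as these are poorly captured.

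Each library held between 39628101 and 68530912 counts. Ago2, the targeted gene, gave between 3842 and 34965 counts in wild-type and between 12319 and 23871 in ΔAgo2 libraries (log2 fold change 0.21, edgeR adjusted p = 0.908). In these data the genotype is therefore taken from the labels alone, which the Ago2 transcript does not check. The paper refers to a western blot of Ago2 protein for its ΔAgo2 LLC cells, which was not read here. Wild-type replicate 4 stood apart from the other 7 libraries. It had 0.540% of its counts on mitochondrial genes against 2.39% to 4.51% elsewhere, and its difference from the rest of the wild-type group followed GC content across genes (Spearman rho 0.72). The values of EMT genes are therefore given with and without it. Of 9 lung epithelial markers, Nkx2-1, Sftpa1, Sftpb and Scgb1a1 had 0 counts in every library, Sftpc and Epcam had at most 3, and only Krt8 and Krt18 passed the expression filter. The summed CPM (counts scaled to the library size with edgeR's TMM factors) of these 9 markers was 113 to 1255 in wild-type and 311 to 507 in ΔAgo2. Summed fibroblast markers, 6 genes with Thy1 at or under 3 counts, were at 12.99 to 77.3 and 38.9 to 88.9 CPM, macrophage markers, 5 genes with Ptprc and Adgre1 at or under 3 counts, at 5.88 to 39.0 and 5.43 to 17.2 CPM, and endothelial markers, 4 genes with Tie1 at or under 3 counts, at 0.0621 to 0.589 and 0.227 to 0.973 CPM. In every library most of the fibroblast sum was Pdgfra, at 11.7 to 70.8 CPM in wild-type and 37.1 to 85.7 CPM in ΔAgo2. Most of the macrophage sum was Cd68, at 5.30 to 38.3 and 4.56 to 16.5 CPM. The part of cells of these types in the values given here was not tested.

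In both genotypes Vim was high, the 6 EMT factors and Cdh2 were present, and Cdh1 and Esrp1 were near or at 0. Other markers were mixed. Of the longer lists below, 16 of 20 mesenchymal and 11 of 33 epithelial genes passed the expression filter. The epithelial keratins Krt8 and Krt18 averaged 274 and 545 TPM (reads scaled to gene length and library total) over all libraries, above Twist1 at 153 TPM. The mesenchymal genes Acta2 and Loxl2 averaged 0.315 and 0.178 CPM in ΔAgo2. Whether the cells were mesenchymal as a whole was not tested. None of the 8 EMT genes that could be tested differed between genotypes at an adjusted p under 0.05, where 42 of the 14228 genes tested passed (0.295%). The adjusted p-values of the 8 ran from 0.727 to 0.973 (edgeR's quasi-likelihood test, two-sided, Benjamini-Hochberg adjustment over all genes tested). Their unadjusted p-values were 0.0910 or more, so 0 of 8 were under 0.05, against 1045 of 14228 genes (7.34%, with 2.72% higher and 4.62% lower in ΔAgo2). Of the 8, 4 had a log2 fold change (ΔAgo2 over wild-type) above 0 and 4 below, with a median of 0.056 against -0.11 over all genes tested. No EMT gene had CPM groups that did not overlap, which 863 genes had (6.07%). The same count of 0 was obtained under all 21 alternative settings, DESeq2 included. A miss at this threshold does not show that the levels were equal, and the 95% intervals given with each gene show what sizes were left possible.

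**Figure D2:**
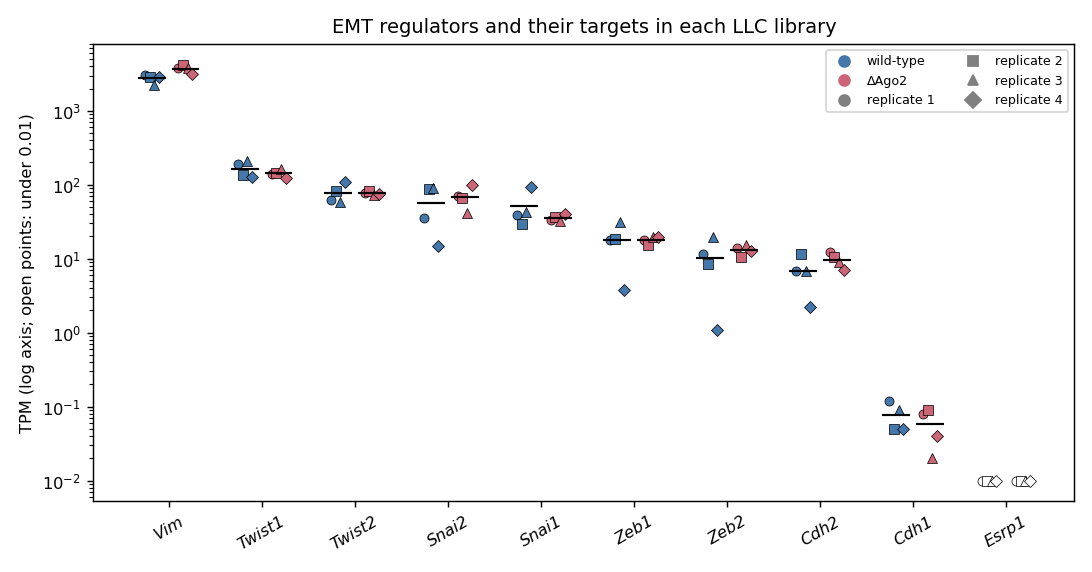
TPM (reads scaled to gene length and library total, log axis) of the 10 EMT genes in each library, wild-type and ΔAgo2 side by side; each point is 1 library, bars are means, and open points are values under 0.01. Vim sits at 2217 to 4193 TPM in all 8 libraries and Cdh1 at 0.12 TPM or less, and the points of the 2 genotypes overlap for every gene but Vim.

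On the deposited TPM scale, which is per length and so lets genes be compared, the order of the mean levels was the same in both genotypes. Vim was highest, followed by Twist1, Twist2, Snai2, Snai1, Zeb1, Zeb2, Cdh2, Cdh1 and Esrp1. In wild-type cells Vim was at 2751 ± 367 TPM (SD, n = 4), Twist1 at 165 ± 41.1, Twist2 at 77.9 ± 23.2, Snai2 at 57.0 ± 37.7 and Snai1 at 50.9 ± 27.9 TPM. Zeb1 was at 17.9 ± 11.2 TPM, Zeb2 at 10.2 ± 7.70, Cdh2 at 6.88 ± 3.88 and Cdh1 at 0.0775 ± 0.0340 TPM. The ranges of neighbours from Twist2 down to Cdh2 overlapped in wild-type, so that part of the order is not resolved, whereas Vim, Twist1 and Twist2, and Cdh2, Cdh1 and Esrp1, did not overlap. In ΔAgo2 cells Vim was at 3732 ± 441 TPM (SD, n = 4), Twist1 at 142 ± 15.4, Twist2 at 76.2 ± 3.84, Snai2 at 69.4 ± 23.4 and Snai1 at 35.6 ± 3.22 TPM. Zeb1 was at 18.0 ± 2.05 TPM, Zeb2 at 13.1 ± 1.97, Cdh2 at 9.71 ± 2.26 and Cdh1 at 0.0575 ± 0.0330 TPM. There, only Twist2 and Snai2, Zeb1 and Zeb2, and Zeb2 and Cdh2 overlapped as neighbours. Levels are averages over the cells of a culture, so fewer cells with a transcript and less RNA per cell cannot be told apart.

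Zeb1 and Zeb2 are the main targets of miR-200 and repress Cdh1 and the miR-200 genes. Zeb1 (ENSMUSG00000024238.15, GRCm38 18, 5591860 to 5775467, plus strand) was counted at 59.3, 48.9, 93.6 and 17.2 in wild-type and at 48.6, 42.9, 59.0 and 56.9 CPM in ΔAgo2 replicates 1 to 4. Wild-type replicates 3 and 4 were the highest and lowest of all 8, and the ΔAgo2 libraries lay between them. The means were 54.7 ± 31.5 and 51.9 ± 7.49 CPM (SD, n = 4 each). The log2 fold change was -0.079 (SE 0.43, 95% interval -1.03 to 0.87, edgeR adjusted p = 0.973), and -0.37 without wild-type replicate 4 (SE 0.23, interval -0.90 to 0.16, adjusted p = 0.551). Its direction was not stable, with 0.31 without wild-type replicate 3.

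Zeb2 (ENSMUSG00000026872.18, 2, 44983632 to 45117395, minus strand) was counted at 75.8, 44.1, 116 and 9.71 in wild-type and at 74.0, 58.8, 91.0 and 72.5 CPM in ΔAgo2. As for Zeb1, wild-type replicate 3 was highest and replicate 4 lowest, with the ΔAgo2 libraries inside that range. The means were 61.4 ± 45.3 and 74.1 ± 13.2 CPM (SD, n = 4 each), with a log2 fold change of 0.27 (SE 0.57, interval -0.99 to 1.53, edgeR adjusted p = 0.918). Without wild-type replicate 4 it was -0.077 (SE 0.30, interval -0.75 to 0.60, adjusted p = 0.941). Zeb2os, on the opposite strand from 45110707 to 45114087, had 23 to 77 counts in each library. The strand setting of the counting is not given in the sources used here, so reads of the overlap cannot be told apart.

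Snai1 and Snai2 (Slug) bind E-boxes in the Cdh1 promoter. Snai1 (ENSMUSG00000042821.7, 2, 167538195 to 167542814, plus strand) was counted at 20.3, 12.2, 20.5 and 67.1 in wild-type and at 14.4, 16.3, 15.5 and 18.2 CPM in ΔAgo2. Wild-type replicate 4 was far above the rest, and replicate 2 was below all ΔAgo2 libraries. The means were 30.04 ± 25.0 and 16.1 ± 1.57 CPM (SD, n = 4 each), for a log2 fold change of -0.90 (SE 0.48, interval -1.96 to 0.17, edgeR adjusted p = 0.727). Without wild-type replicate 4 the value was -0.12 (SE 0.22, interval -0.62 to 0.38, adjusted p = 0.855).

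Snai2 (ENSMUSG00000022676.7, 16, 14705852 to 14709385, plus strand) was counted at 23.3, 44.5, 53.9 and 13.5 in wild-type and at 37.6, 37.3, 24.8 and 56.5 CPM in ΔAgo2. The groups overlapped over most of their ranges. The means were 33.8 ± 18.6 and 39.0 ± 13.1 CPM (SD, n = 4 each), with a log2 fold change of 0.21 (SE 0.44, interval -0.76 to 1.17, edgeR adjusted p = 0.919). It was -0.053 without wild-type replicate 4 (SE 0.34, interval -0.81 to 0.71, adjusted p = 0.967).

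Twist1 and Twist2 dimerize with E proteins. Twist1 (ENSMUSG00000035799.6, 12, 33957671 to 33959829, plus strand) was counted at 101, 55.9, 99.1 and 92.0 in wild-type and at 59.7, 63.8, 78.1 and 57.6 CPM in ΔAgo2. Wild-type replicates 1, 3 and 4 were above all ΔAgo2 libraries and replicate 2 was below them. The means were 86.9 ± 21.1 and 64.8 ± 9.20 CPM (SD, n = 4 each), for a log2 fold change of -0.42 (SE 0.27, interval -1.02 to 0.17, edgeR adjusted p = 0.740). This was the EMT gene least moved by wild-type replicate 4, with -0.38 without it (SE 0.22, interval -0.88 to 0.11, adjusted p = 0.515).

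Twist2 (ENSMUSG00000007805.4, 1, 91801461 to 91848028, plus strand) was counted at 64.1, 67.2, 53.6 and 155 in wild-type and at 64.2, 71.1, 67.7 and 67.5 CPM in ΔAgo2. Apart from wild-type replicate 4, all libraries lay within a narrow range. The log2 fold change was -0.33 (SE 0.35, interval -1.10 to 0.44, edgeR adjusted p = 0.826) and 0.14 without wild-type replicate 4 (SE 0.14, interval -0.18 to 0.46, adjusted p = 0.719).

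Cdh1 encodes E-cadherin, the adhesion protein of epithelial junctions, and Cdh2 encodes N-cadherin, its mesenchymal counterpart. Cdh1 (ENSMUSG00000000303.12, 8, 106603351 to 106670246, plus strand) had 9, 4, 8 and 3 counts in wild-type and 6, 5, 1 and 3 counts in ΔAgo2, 39 counts in all, too few to pass the filter. It was detected in every library at a trace level and the groups overlapped. Cdh2 (ENSMUSG00000024304.14, 18, 16588877 to 16809246, minus strand) was counted at 17.6, 24.1, 16.2 and 8.04 in wild-type and at 26.2, 23.5, 21.4 and 15.9 CPM in ΔAgo2. Wild-type replicate 4 was lowest and the other libraries were intermixed. The means were 16.5 ± 6.61 and 21.8 ± 4.36 CPM (SD, n = 4 each), for a log2 fold change of 0.40 (SE 0.35, interval -0.38 to 1.18, edgeR adjusted p = 0.789), and 0.18 without wild-type replicate 4 (SE 0.23, interval -0.34 to 0.70, adjusted p = 0.791).

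Esrp1 (ENSMUSG00000040728.15, 4, 11331933 to 11386783) encodes an epithelial splicing regulator that is turned off in EMT, and it had 0 counts in all 8 libraries. Vim (ENSMUSG00000026728.9, 2, 13573927 to 13582826, plus strand) encodes vimentin, the intermediate filament of mesenchymal cells, and was the most abundant of the 10. It was counted at 4682, 3509, 3070.2 and 6073 in wild-type and at 4839, 5475, 5254 and 4208 CPM in ΔAgo2. The wild-type libraries reached beyond the ΔAgo2 libraries on both sides. The means were 4334 ± 1345 and 4944 ± 557 CPM (SD, n = 4 each), for a log2 fold change of 0.19 (SE 0.31, interval -0.49 to 0.87, edgeR adjusted p = 0.890). Without wild-type replicate 4 it was 0.41 (SE 0.22, interval -0.096 to 0.91, adjusted p = 0.492). On the TPM scale the groups did not overlap, with 3049, 2896, 2217 and 2842 TPM in wild-type and 3850.3, 4193, 3748 and 3135 TPM in ΔAgo2, as for 881 of the 14228 genes (6.19%). The log2(TPM + 1) difference was 0.44 (limma adjusted p = 0.763), and a correction of the counts for GC content turned the log2 fold change to -0.12. No setting gave Vim an adjusted p under 0.05.

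**Figure D3:**
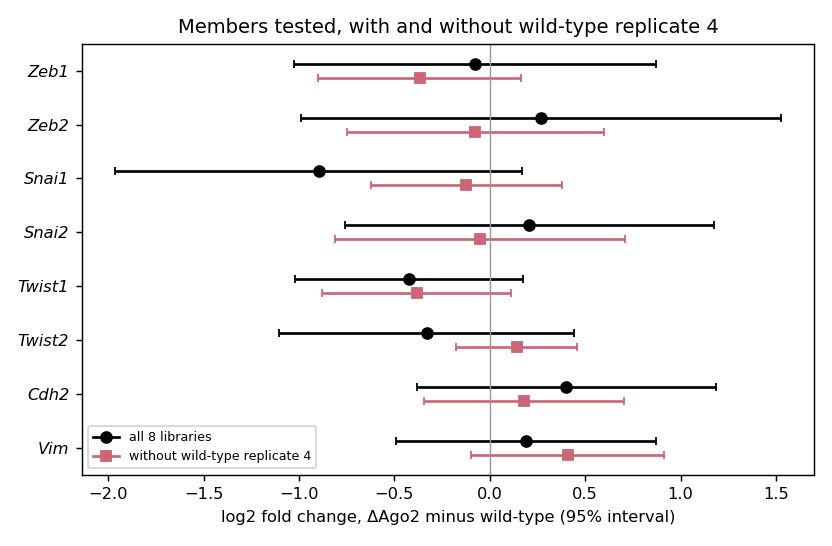
Log2 fold change (ΔAgo2 over wild-type, x axis) of the 8 tested EMT genes with 95% intervals from edgeR; black points use all 8 libraries, red squares leave out wild-type replicate 4. Every interval spans 0 in both sets, and Snai1 moves from -0.90 to -0.12 and Twist2 from -0.33 to 0.14.

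The deviation of wild-type replicate 4 differed in sign among these genes. Its log2 difference from the mean of the other 3 wild-type libraries was -1.91 for Zeb1, -2.90 for Zeb2, -1.49 for Snai2 and -1.23 for Cdh2, whose longest transcripts have 46.1%, 40.6%, 42.6% and 49.5% GC. It was higher by 1.96 for Snai1 (59.8% GC), 1.34 for Twist2 (52.6%), 0.72 for Vim (46.5%) and 0.16 for Twist1 (59.3%). The part of GC content in these values was not tested gene by gene.

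Across the 8 libraries, the tested genes whose log2 CPM followed Zeb1 most closely were Kpna4 (Pearson r 0.997), Rrm2b (0.997) and Picalm (0.997), and without wild-type replicate 4 these r were 0.990, 0.987 and 0.986. For Vim they were Dnm1 (0.965), Ankrd9 (0.964) and Gsdmd (0.964), with 0.972, 0.961 and 0.953 without that library. They are the highest of 14228 genes over few points that share library and depth, and they are given as a description.

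The 2 miR-200 seeds were also compared with the fold changes of all genes with an annotated 3′ UTR. Among the 12077 tested genes of this kind, genes without a match (8254) had a median log2 fold change of -0.17, those with 1 match (2499) had -0.01, those with 2 (860) had 0.05 and those with 3 or more (464) had 0.11. Without wild-type replicate 4 the order was the opposite, with medians of -0.02, -0.05, -0.05 and -0.08. With the GC correction they were -0.10, -0.06, -0.03 and -0.03. Median GC content fell with the number of matches, from 51.3% to 47.8%, 46.2% and 44.4%. Median UTR length rose with it, from 975.5 to 2062, 2840 and 4204.5 bases. The rise with matches over all 8 libraries thus did not hold without 1 library. The share called at an adjusted p under 0.05 was 0.291%, 0.360%, 0.349% and 0.216%, against 0.306% over all 12077.

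**Figure D4:**
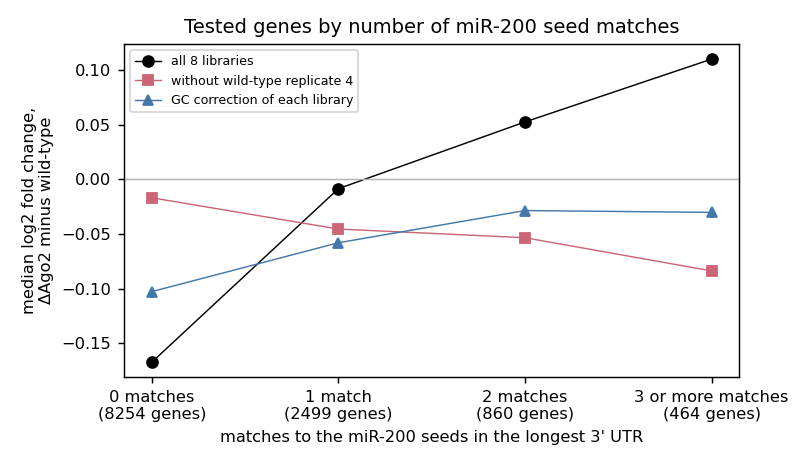
Median log2 fold change (ΔAgo2 over wild-type, y axis) of tested genes by the number of miR-200 seed matches in the longest 3′ UTR (x axis), for the fit to all 8 libraries, the fit without wild-type replicate 4 and the fit with GC correction. The medians go from -0.17 to 0.11 with all libraries and from -0.02 to -0.08 without wild-type replicate 4.

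A list of 18 published miR-200 targets beside Zeb1 and Zeb2 held 16 genes with a seed match, and 16 of the 18 could be tested. Of these, 2 were called lower in ΔAgo2, against 31 of 14228 genes (0.218%), and 0 were called higher, against 11 genes (0.0773%). The list's median log2 fold change was -0.44 against -0.11 over all genes, with 5 above 0. Because the list was chosen with earlier results of these data known, its counts and median are a description and not a test. Wasf3, a WAVE family activator of actin branching, was at 1.99, 0.708, 2.17 and 1.33 CPM in wild-type, while ΔAgo2 replicate 1 had 1 count and the other 3 had 0. It was at least 24.8-fold lower in ΔAgo2, taking 3 counts per library as the floor (edgeR adjusted p = 0.00791). Wasf3 passed the expression filter only through its wild-type libraries, with 98, 50, 146 and 43 counts. It could therefore only come out lower, and its call is given as a description. Its UTR has 3 matches. Marcks, an actin-binding substrate of protein kinase C with 1 match, was at 6.69, 3.07, 16.6 and 5.12 in wild-type and at 0.391, 0.380, 0.367 and 0.718 CPM in ΔAgo2. Every wild-type library was above every ΔAgo2 library, with a log2 fold change of -4.07 (SE 0.60, edgeR adjusted p = 0.0247). Without ΔAgo2 replicate 1 neither call was kept (adjusted p = 0.0944 for Wasf3 and 0.147 for Marcks), and the call of Marcks was also lost without any other ΔAgo2 library (0.141, 0.136 and 0.0773) or without wild-type replicate 1 (0.0670). Without ΔAgo2 replicate 1 only 1 gene of the whole table was called, Wasf3 had 0 counts in the 3 ΔAgo2 libraries left, and the log2 fold change of Marcks was -4.01. It was -3.99 to -4.36 without the other ΔAgo2 libraries and -4.14 without wild-type replicate 1.

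Other genes of that list did not pass the test. Ppm1f, a phosphatase, was at 101 ± 36.6 in wild-type and at 46.0 ± 4.74 CPM in ΔAgo2 without overlap (log2 fold change -1.13, SE 0.30, edgeR adjusted p = 0.277, DESeq2 0.0386). Jag1, a Notch ligand, was at 6.32, 6.25, 14.3 and 0.807 in wild-type and at 1.72, 1.38, 2.57 and 1.53 CPM in ΔAgo2. Its log2 fold change was -1.95 (edgeR adjusted p = 0.507), and -2.31 without wild-type replicate 4 (edgeR adjusted p = 0.0388). With all libraries and sample weights (voomWithQualityWeights) the adjusted p was 0.0106. The call of Jag1 thus depended on wild-type replicate 4 and on the method. Tubb3, a neuronal tubulin, was at 5.99 ± 3.94 and 2.42 ± 0.619 CPM without overlap (edgeR adjusted p = 0.524). Jag1 and Tubb3, chosen for mention after their values were seen, are the list's genes with no match in the annotated UTR. The 2 of the list with the highest mean TPM over all libraries were Fscn1, which bundles actin, and Msn, a membrane-actin linker. Fscn1 was at 1099.8 CPM in wild-type replicate 4, at 229.5 to 385 CPM in the rest of the wild-type group and at 353 ± 32.4 CPM in ΔAgo2. Its log2 fold change was -0.49 (edgeR adjusted p = 0.809), and 0.26 without that library. Msn was at 575 ± 165 and 489 ± 77.0 CPM (edgeR adjusted p = 0.844).

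**Figure D5:**
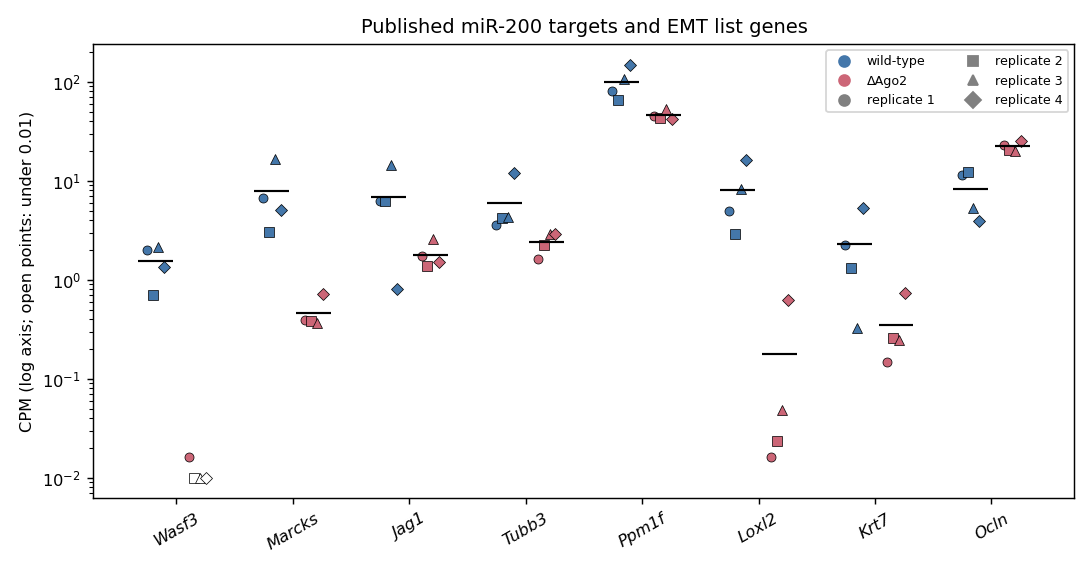
CPM (log axis) of 8 genes of the EMT lists in each library; points are libraries, bars are means, and open points are values under 0.01. Wasf3, Marcks, Ppm1f, Tubb3 and Loxl2 are lower in all ΔAgo2 libraries than in any wild-type library, Ocln is higher in all, and Jag1 and Krt7 overlap. The 8 genes were picked with their values known. Groups did not overlap for 863 of all 14228 genes tested (6.07%). That held for 4 of the 16 published targets tested, 2 of 16 mesenchymal genes and 1 of 11 epithelial genes.

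Of 33 epithelial genes, 11 could be tested and 0 were called, against 42 of 14228 genes (0.295%). With so small a share, 0 calls in this list or the short lists below say little about the list. The median log2 fold change of the 11 was -0.28 with 3 above 0, against -0.11 and 5864 of 14228 genes. At most 3 counts were found in every library for 13 of the 33. They included Epcam, the factors Grhl3, Ovol1 and Ovol2, and the claudins Cldn3 and Cldn4, of which Cldn3 had 0 counts throughout. Ocln, the tight junction protein occludin, was at 11.5, 12.4, 5.30 and 3.97 in wild-type and at 23.3, 20.4, 20.2 and 25.5 CPM in ΔAgo2. Its groups did not overlap (log2 fold change 1.43, SE 0.39, edgeR adjusted p = 0.292, exact permutation p = 0.0286, the smallest possible here), and DESeq2 called it (adjusted p = 0.0281). The keratin Krt7 was at 2.29 ± 2.15 and 0.347 ± 0.265 CPM (edgeR adjusted p = 0.390, DESeq2 0.0189), and the factor Elf3 at 2.41 ± 2.17 and 0.918 ± 0.457 CPM (edgeR adjusted p = 0.686). Without wild-type replicate 4 the log2 fold change went from -2.70 to -1.86 for Krt7 and from -1.38 to -0.54 for Elf3. Krt8 was at 74.4, 139, 38.2 and 654 in wild-type and at 127, 131, 107 and 177 CPM in ΔAgo2, with wild-type replicate 4 far above the rest. Its partner Krt18 was at 601 CPM in that library, at 75.2 to 193 CPM in the rest of the wild-type group and at 239 ± 63.4 CPM in ΔAgo2. Neither passed the test (edgeR adjusted p = 0.816 and 0.965), and without wild-type replicate 4 the log2 fold change turned from -0.74 to 0.70 for Krt8 and from -0.12 to 0.72 for Krt18. Spint2, a protease inhibitor chosen after its values were seen, had 11, 4, 17 and 16 counts in wild-type and 0 in all ΔAgo2 libraries. This is at least 4.11-fold lower with 3 counts per library as the floor, and it was too low to be tested.

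Of 20 mesenchymal genes, 16 could be tested and 0 were called, against 0.295% of all genes tested. Their median log2 fold change was 0.12 against -0.11 over all genes tested, with 10 above 0. Tagln, Thy1, Fap and Mmp2 were too low to be tested, and Thy1 had at most 3 counts in every library. Loxl2, a lysyl oxidase that crosslinks collagen and stabilizes Snai1, was at 4.92, 2.89, 8.20 and 16.1 in wild-type and at 0.0163, 0.0237, 0.0490 and 0.624 CPM in ΔAgo2. The groups were far apart, but the spread was wide (log2 fold change -5.45, SE 1.11, edgeR adjusted p = 0.0991), and 9 of the 21 alternatives called it. Loxl2 passed the expression filter only through its wild-type libraries, so it could only come out lower. Acta2, smooth muscle actin, was at 1.28, 2.32, 87.7 and 74.3 in wild-type and at 0.293, 0.427, 0.0490 and 0.492 CPM in ΔAgo2, with a log2 fold change of -7.01 (SE 1.45, edgeR adjusted p = 0.107, DESeq2 1.99e-05). Wild-type replicates 3 and 4 carried most of this difference. Pdgfrb, a receptor of mesenchymal cells, was at 3.13 ± 2.54 and 0.609 ± 0.629 CPM (edgeR adjusted p = 0.440, DESeq2 0.0400). The 2 with the highest mean TPM over all libraries were Lgals1, galectin-1, and the matrix protein Sparc. Lgals1 was at 9451 CPM in wild-type replicate 4, at 781 to 1755 CPM in the rest of the wild-type group and at 1690 ± 149 CPM in ΔAgo2. Its log2 fold change was -1.01 (edgeR adjusted p = 0.740), and 0.28 without that library. Sparc was at 688 ± 296 and 1040.0 ± 41.6 CPM (edgeR adjusted p = 0.732).

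Of 13 other EMT factors, 12 were matched and 10 tested, with 0 called against 0.295% of all genes tested. Their median log2 fold change was -0.35 against -0.11 over all genes tested, with 3 above 0. The Id proteins, which bind E proteins and so oppose bHLH factors, were at 22.3 ± 11.4 and 10.4 ± 2.68 CPM for Id2, 33.8 ± 14.3 and 18.8 ± 8.09 CPM for Id1, and 146 ± 148 and 56.8 ± 23.2 CPM for Id3. The edgeR adjusted p was 0.592 for Id2 and 0.706 for both others. Id3 was at 364 CPM in wild-type replicate 4 and at 32.0 to 99.9 CPM in the rest of the wild-type group. Without that library the log2 fold change went from -1.36 to -0.37 for Id3. It went from -0.85 to -0.54 for Id1 and from -1.11 to -1.16 for Id2. Fosl1, an AP-1 subunit, was at 219 ± 108 and 313 ± 92.5 CPM (edgeR adjusted p = 0.761). Gsc had at most 3 counts in every library and Snai3, the third Snail gene, was too low to be tested.

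The catenins, which tie cadherins to actin, numbered 7, of which 5 were tested and 0 called, against 0.295% of all genes tested. Their median log2 fold change was 0.24 against -0.11 over all genes tested, with 3 above 0. Ctnnb1, β-catenin, was at 519 ± 142 and 639 ± 29.8 CPM, Ctnna1 at 385 ± 29.1 and 341 ± 11.7 CPM, and Ctnnal1 at 128 ± 49.7 and 151 ± 43.7 CPM, with edgeR adjusted p = 0.801, 0.851 and 0.874. Of 7 genes whose splicing is controlled by ESRP proteins, 6 were tested and 0 called, against the same 0.295% (median 0.03 against -0.11, 3 above 0). Cd44, a hyaluronan receptor, was at 522 ± 174 and 716 ± 117 CPM, Slk, a kinase, at 182 ± 102 and 256 ± 40.6 CPM, and Enah, an actin regulator, at 85.1 ± 32.6 and 92.0 ± 6.45 CPM, with edgeR adjusted p = 0.743, 0.823 and 0.945. Counts per gene do not show which isoforms were made.

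Promoters were read for the E-box letters CAGGTG or its reverse complement CACCTG, which Snail and ZEB proteins bind. RefSeq windows from 250 bases before to 50 bases after the start matched Snai1, Twist1, Twist2, Vim and Zeb2, in 8 windows. The letters were found in 1 of them, that of Snai1, while 6640 of 32851 windows of that length hold them (20.2%).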

How the data were processed

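RNA-seq counts of 4 wild-type and 4 ΔAgo2 LLC libraries were used. The authors aligned reads from a stranded mRNA kit to ribosomal RNA and then to mm10 (STAR, per the submitters' processing notes), counted them on genes with featureCounts and deposited raw counts per gene. TPM values, scaled to gene length and library total, were also deposited by the authors. The annotation release and strand setting are not given in the sources used here. Positions, GC content and 3′ UTRs came from the GENCODE annotation of GRCm38, and 93 identifiers had no symbol.

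Genes were filtered with filterByExpr, scaled with TMM and fitted in edgeR 4.0.16 (R 4.3.3; quasi-likelihood F test), with genotype as the only factor and Benjamini-Hochberg adjustment over 14228 genes. SE is |log2 fold change|/√F. Alternatives used DESeq2 1.42.0 and limma 3.58.1, other scalings and filters, a GC correction (loess span 0.4), a replicate block, log2(TPM + 1) and log2(TPM + 0.1), and each library left out. The method was tested on simulated counts drawn separately for each gene, with no library shifted by GC content. That test therefore does not cover a shift such as that of wild-type replicate 4. Intervals of counts at 0 cover counting error only.

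Named genes are the 10 EMT genes and, per list, those called, the 3 with the smallest p and the 2 with the highest mean TPM. The genes and lists were chosen with earlier results of these data known. The result for 1 list gene is not reported here.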

Additional observations from a re-analysis of the deposited data

Results flagged for a closer look

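In 9 of 70 groups of 4 libraries, 1 library lay apart by Dixon's ratio on log2(CPM + 0.1) (the gap to the nearest library over the range, beyond the 95% critical value), where chance gives about 1 in 20. Of the EMT genes, Twist1 was low in wild-type replicate 2 (ratio 0.846; 55.9 CPM against 92.0 to 101). In wild-type replicate 4, Slk (0.901) and Enah (0.945) were low and Tubb3 (0.846) was high. In ΔAgo2 replicate 4, Ctnnal1 was low (0.956) and Loxl2 (0.864), Pdgfrb (0.845) and Marcks (0.914) were high. Loxl2 had 33 counts there and 1 or 2 in the other ΔAgo2 libraries, and Marcks 38 counts against 15 to 24. Wasf3 in ΔAgo2 replicate 1 had 1 count against 0 in the others, which gives a ratio of 1. The causes were not tested.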

How the results depend on the processing

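No EMT gene was called under any of the 21 alternatives, and 15 of their log2 fold changes changed sign while 153 did not. The count of genes called, 42, was 399 with DESeq2, 257 with sample weights (voomWithQualityWeights), 143 with all genes of at least 1 count, 74 with the GC correction, 71 with it and the replicate block, 18 with the replicate block and 15 on log2(TPM + 1), and 1 to 113 with 1 library left out, lowest without ΔAgo2 replicate 1 and highest without wild-type replicate 4. Of list genes, 2 were called, against 8 with DESeq2, 7 with sample weights, 4 with at least 1 count, 1 on log2(TPM + 1) and 0 to 3 with 1 library left out. Wasf3 was called in 19 of 21 alternatives, but not on log2(TPM + 1) (adjusted p = 0.0769) or without ΔAgo2 replicate 1 (0.0944). Marcks was called in 14, and lost with the block (0.0525), on log2(TPM + 1) (0.0922), without wild-type replicate 1 (0.0670) and without ΔAgo2 replicates 1 to 4 (0.147, 0.141, 0.136 and 0.0773). The replicate numbers did not pair the libraries (mean correlation of same-numbered deviations 0.051, from -0.15 to 0.39, and 1 of 8 libraries closest to its own number), so the block is only an alternative. Changes of sign in the log2 fold change were as follows. With the GC correction, Vim was at -0.12, Enah -0.052, Fscn1 0.061 and Krt18 0.40, and with the block added Enah was at -0.049, Fscn1 0.12, Krt8 0.33 and Krt18 0.48. With the replicate block alone, Zeb1 was at 0.11, Krt8 0.11 and Krt18 0.24, with limma-voom Zeb1 0.12, Krt8 0.095 and Krt18 0.26, and by library size alone Krt18 0.090. On log2(TPM + 1), Zeb1 was at 0.30, Twist2 0.012, Msn 0.0038, Fscn1 0.012, Ctnna1 0.034, Krt8 0.28 and Krt18 0.45, and on log2(TPM + 0.1) Zeb1 0.35, Twist2 0.013, Msn 0.0041, Fscn1 0.012, Ctnna1 0.035, Krt8 0.28 and Krt18 0.46. With sample weights, Zeb2 was at -0.012, Twist2 0.072, Enah -0.12, Lgals1 0.032, Id3 0.29, Fscn1 0.40, Krt18 0.36 and Krt8 0.73. Leaving out 1 library gave -0.37 to 0.31 for Zeb1, -0.077 to 0.78 for Zeb2, -0.053 to 0.53 for Snai2, -0.49 to 0.14 for Twist2, -0.13 to 0.23 for Enah, -0.73 to 0.26 for Fscn1, -1.34 to 0.28 for Lgals1, -1.09 to 0.70 for Krt8 and -0.42 to 0.72 for Krt18. The median log2 fold change over the genes of each fit went from -0.11 to -0.0075 (library size alone), 0.15 (log2(TPM + 1)) and 0.22 (log2(TPM + 0.1)). It was -0.19 with DESeq2 and -0.17 with all genes of at least 1 count, and both of these fits held more genes than the main one. The cause of these changes was not tested. With 4 libraries a group the exact permutation p cannot go below 0.0286.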
